A study of Rattus norvegicus with 30 samples.

Results

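Ccl2, Il1b, Tgfb1, Tlr2 and Tlr4 are 5 genes of chemokine, cytokine and Toll-like receptor signalling. They were taken by their Ensembl identifiers, ENSRNOG00000007159, ENSRNOG00000004649, ENSRNOG00000020652, ENSRNOG00000009822 and ENSRNOG00000010522 in that order. The rule used no measured value, but the genes were proposed with earlier results of these data known, so their share of calls is a description. All 5 were present among the 26404 genes of the count tables. The tables hold identifiers only, so the symbols rest on the list that defined the genes.

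mRNA was sequenced from 10 adult male Sprague-Dawley rats at 3 months after lateral fluid-percussion injury (FPI) or sham operation. Lateral FPI is a model of traumatic brain injury (TBI) in which a short pressure pulse of fluid is delivered onto the closed dura through an opening in the skull. Rats 6 to 10 received the pulse and are called the TBI rats. Rats 1 to 5 were sham-operated, with the same anesthesia and the same craniectomy but no pulse, so the effect of the surgery is shared by both groups. Perilesional cortex, thalamus and hippocampus were taken from each rat, giving 30 libraries and 5 rats per group in each brain area. The sample labels name the dorsal hippocampus, and the dissection described was the dentate gyrus with the adjoining part of CA3.

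Ccl2 encodes a chemokine that attracts monocytes to inflamed tissue. Il1b encodes interleukin-1 beta, a pro-inflammatory cytokine made largely by microglia and macrophages, and Tgfb1 encodes transforming growth factor beta 1, a cytokine that restrains inflammation and promotes scar formation and matrix deposition. Tlr2 and Tlr4 encode receptors of innate immunity that recognise bacterial products and molecules released by damaged cells. Their activation leads through NF-kappaB to transcription of cytokine and chemokine genes, and in the brain both receptors are found mainly on microglia.

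Each library held between 21992859 and 31799879 counts. In the hippocampus the 10 most counted genes took 44.1% and 40.9% of the counts in sham rats 4 and 5, against 9.96% to 16.4% in the other 8 libraries. In the cortex this share was 20.3% to 29.6% in sham and 14.1% to 23.8% in TBI rats, and its part in the cortical results was not tested. The hippocampal libraries of rats 3 (sham) and 8 (TBI) went against their labels in a check of genes that differed between rats. Of 12 genes that differed at least 2-fold between these rats in all 3 brain areas, in one direction in both cortex and thalamus, 1 kept that direction in the hippocampus. Among the 28 pairs formed by the other 8 rats, 704 of 711 such genes kept it, as did 58 of 63 among the 16 pairs that joined rat 3 or 8 with another rat. In these 16 pairs, the genes that lost it fell in the pairs of rat 8 with sham rats 1 and 4. There 5 of 7 and 8 of 11 kept it. Since 7 of the 12 genes differed between TBI and sham in the cortex, they are not independent of the treatment. Whether these 2 libraries were exchanged was not tested, and an exchange would alter every hippocampal comparison of TBI with sham. The labels were used as given, and each hippocampal comparison of TBI with sham is also given without both libraries. Fits without them are a description, because the check that picked them is not independent of the treatment. Levels are in CPM, counts relative to the library total, scaled by the trimmed mean of M-values (TMM) over all 30 libraries, with the SD of 5 rats. Levels are compared between rats and between brain areas but not between genes, because gene length was not used. In bulk tissue, more or fewer cells of a type and more or less RNA per cell cannot be told apart.

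In the perilesional cortex, Ccl2, Tgfb1, Tlr2 and Tlr4 were all higher in the TBI rats than in the sham-operated rats. The rise ranged from 0.66 (Tlr2) to 3.10 (Ccl2) on the log2 scale. For each of the 4 genes, the lowest TBI library lay above the highest sham library. Il1b had too few counts for the test across genes and is given separately. By edgeR's quasi-likelihood test, adjusted by Benjamini-Hochberg with 0.05 as the threshold, 4 of 4 tested members were called higher, where 14.2% of the 17185 genes tested were called higher and 10.9% had all TBI libraries above all sham libraries. Ccl2 passed the count filter only through its TBI libraries, so the count and the median over tested members are descriptions. The median log2 fold change was 1.06 over the 4 members and -0.01 over all genes.

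Ccl2, the monocyte-attracting chemokine, had at most 5 counts in any sham library of the cortex. Its counts, in the order of the rat numbers here and throughout, were 2, 5, 1, 1 and 0 in sham and 29, 23, 11, 18 and 15 in TBI rats. Thus the sham libraries together held 9 counts and the TBI libraries 96. The mean level was 0.0751 ± 0.0796 CPM in sham and 0.651 ± 0.209 CPM in TBI rats (SD, n = 5 per group). The log2 fold change was 3.10 (SE 0.49, edgeR adjusted p = 0.000455). At such counts the size of the change is imprecise, and it ranged from 2.78 to 3.89 when each rat was left out in turn.

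Il1b, the gene of interleukin-1 beta, had 4, 4, 3, 3 and 6 counts in sham and 13, 12, 5, 10 and 12 counts in TBI rats. In CPM, 4 of the 5 TBI libraries lay above every sham library, whereas the library of TBI rat 8 lay within the sham range. Mean Il1b was 0.159 ± 0.0487 CPM in sham and 0.352 ± 0.0989 CPM in TBI rats. The two-sided exact permutation test of the difference in means gave p = 0.0159, unadjusted, in a design whose smallest possible p is 0.00794. This test was used for the 5 combinations of gene and brain area that edgeR's count filter removed. Adjusted over all genes, the call of cortical Il1b depended on the fit, since the adjusted p was 0.0411 in edgeR without the count filter, 0.0838 in DESeq2 and 0.0985 in one edgeR fit of all brain areas.

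Tgfb1, the anti-inflammatory and matrix-promoting cytokine, was measured on 242 to 616 counts per library. These were 248, 242, 251, 270 and 282 in sham and 616, 461, 530, 586 and 452 in TBI rats. The groups did not overlap in CPM either, with 8.77 to 12.3 CPM in sham and 14.5 to 21.8 CPM in TBI rats. The mean was 10.3 ± 1.30 CPM in sham and 18.2 ± 2.62 CPM in TBI rats (n = 5 per group). It rose by 0.81 on the log2 scale (SE 0.12, edgeR adjusted p = 0.000284).

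The receptor gene Tlr2 had 53, 85, 64, 80 and 83 counts in the sham cortex and 139, 128, 133, 135 and 132 counts in TBI rats. Its level was 2.88 ± 0.460 CPM in sham and 4.62 ± 0.621 CPM in TBI rats, and all TBI libraries lay above the sham range of 2.24 to 3.44 CPM. It rose by 0.66 on the log2 scale (SE 0.15, edgeR adjusted p = 0.00433). The receptor gene Tlr4 had 6, 18, 21, 15 and 20 counts in sham and 78, 30, 29, 53 and 46 counts in TBI rats. Its highest cortical level, 2.25 CPM, was in TBI rat 6, whereas TBI rats 7 and 8 had 1.19 CPM each and no sham rat exceeded 0.734 CPM. Tlr4 rose by 1.32 on the log2 scale (SE 0.25, edgeR adjusted p = 0.00173). All 4 cortical calls stayed past the threshold in each of the 10 fits that left out 1 rat.

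**Figure D1:**
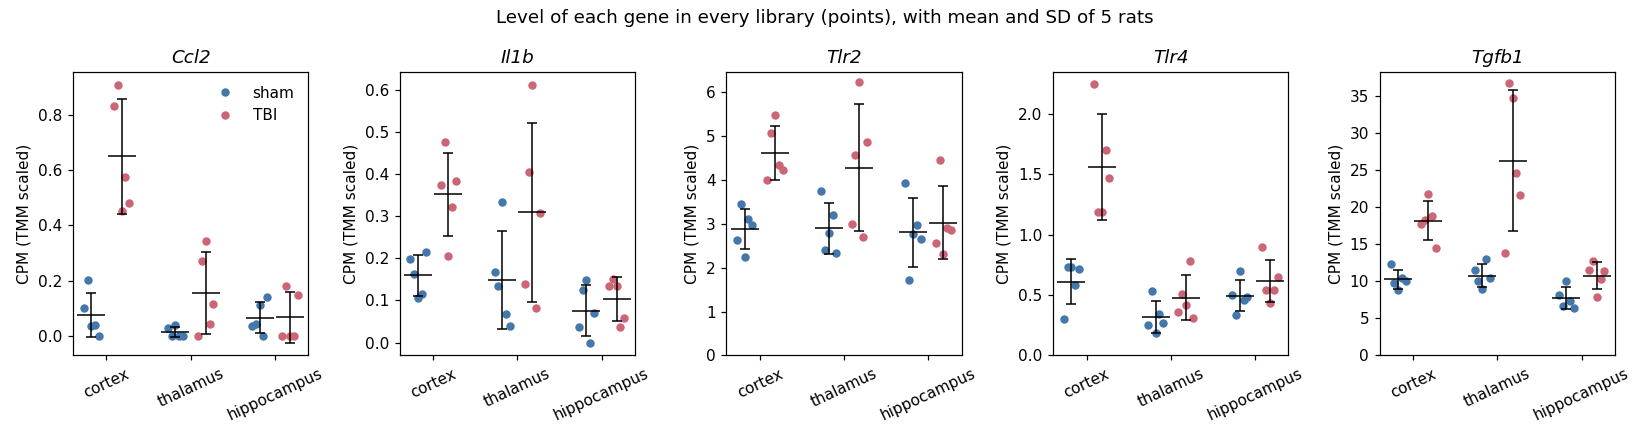
Level of each gene in CPM (vertical axis) in the 3 brain areas (horizontal axis), with 1 point per library and bars for the mean and SD of 5 sham (blue) or 5 TBI rats (red). Cortical Ccl2, Tlr2, Tlr4 and Tgfb1 and thalamic Tgfb1 show no overlap between the groups, and thalamic Tgfb1 of TBI rats spreads from 13.8 to 36.8 CPM.

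Of the 4 genes called in the cortex, Tlr2, Tlr4 and Tgfb1 matched an entry among the RefSeq promoters used here and Ccl2 did not, and the promoters of these 3 are shown. The sequences are the 250 bases before the RefSeq start of each gene on the GRCr8 build, 5′ to 3′ on the strand of the gene: chr2:171504558-171504807 on the minus strand for Tlr2, chr5:85160997-85161246 on the plus strand for Tlr4 and chr1:90324062-90324311 on the plus strand for Tgfb1. Capitals mark matches to any of 6 motifs searched on both strands.
Tlr2: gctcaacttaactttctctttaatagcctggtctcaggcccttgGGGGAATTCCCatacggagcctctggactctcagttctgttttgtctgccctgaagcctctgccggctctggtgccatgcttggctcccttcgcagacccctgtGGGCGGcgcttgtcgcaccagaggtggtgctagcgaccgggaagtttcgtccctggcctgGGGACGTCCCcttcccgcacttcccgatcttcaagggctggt
Tlr4: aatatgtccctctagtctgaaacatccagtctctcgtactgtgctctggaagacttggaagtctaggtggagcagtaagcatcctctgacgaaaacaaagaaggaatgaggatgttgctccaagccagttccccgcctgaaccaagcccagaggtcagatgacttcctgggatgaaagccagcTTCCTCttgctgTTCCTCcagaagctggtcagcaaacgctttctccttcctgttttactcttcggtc
Tgfb1: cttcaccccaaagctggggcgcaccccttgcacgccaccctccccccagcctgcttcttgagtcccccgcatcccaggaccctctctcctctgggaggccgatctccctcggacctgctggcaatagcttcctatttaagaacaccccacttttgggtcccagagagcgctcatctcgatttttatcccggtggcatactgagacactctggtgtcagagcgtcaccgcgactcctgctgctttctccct
The motifs were the NF-kappaB consensus, the AP-1 site TGANTCA, the GC box GGGCGG, the TATA box TATAAA, the CCAAT box and the PU.1 core GAGGAA, and they were chosen with the expression results known. The Tlr2 window held the NF-kappaB consensus from -206 to -196, where overlapping matches were found, and from -42 to -33, counted from the start site, and GGGCGG from -102 to -97. The Tlr4 window held GAGGAA on the opposite strand at -67 to -62 and -55 to -50, seen above as its complement. The Tgfb1 window held none of these letters. Of 33469 rat promoters of this length, 6.33% held the NF-kappaB consensus, 6.34% TGANTCA, 30.5% GGGCGG, 12.9% TATAAA, 34% CCAAT and 23.3% GAGGAA. A match describes the letters and not a bound site.

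In the thalamus, Tgfb1 was the member called higher after TBI, at 2.44 times the sham mean. The receptor genes and Il1b had higher means in the TBI rats but overlapped with sham and did not pass their tests. Ccl2 was detected mainly in 3 of the 5 TBI rats. In edgeR's test, 1 of 3 tested members was called higher, where 3.77% of the 16605 genes tested were called higher and 2.74% had all TBI libraries above all sham libraries. The median log2 fold change was 0.59 over the 3 tested members and -0.00 over all genes.

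Thalamic Tgfb1 had 411, 301, 242, 378 and 272 counts in sham and 496, 1361, 908, 600 and 563 counts in TBI rats. In CPM these were 11.5, 10.1, 8.99, 13.0 and 10.4 in sham and 13.8, 36.8, 34.7, 24.6 and 21.6 in TBI rats. TBI rats 7 and 8 were the highest, and TBI rat 6 lay just above the highest sham rat. The mean was 10.8 ± 1.51 CPM in sham and 26.3 ± 9.51 CPM in TBI rats, so that the coefficient of variation was 14.0% in sham and 36.2% in TBI rats. Tgfb1 rose by 1.30 on the log2 scale (SE 0.23, edgeR adjusted p = 0.0198). This call depended on single rats. Without rat 3, 5, 7 or 8 the edgeR adjusted p was 0.0592, 0.0661, 0.0617 or 0.0616, with log2 fold changes from 1.15 to 1.28. The unadjusted p of Tgfb1 in these 4 edgeR fits was 0.00027 to 0.00037. In the same 4 fits the count of genes called in the thalamus went from 934 to 0, and without rat 6 it rose to 2421. With all rats, the adjusted p of Tgfb1 was 1.9e-05 in DESeq2, 0.0049 in voom with quality weights and 3.9e-05 in one edgeR fit of all brain areas.

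**Figure D2:**
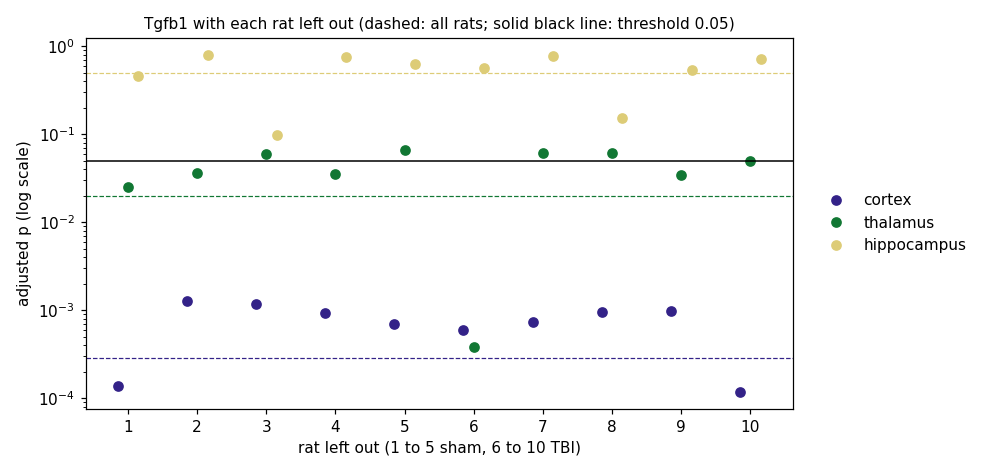
Adjusted p of Tgfb1 in edgeR (vertical axis, log scale) when the rat on the horizontal axis was left out of the comparison of TBI with sham, for each brain area (colours). Every cortical fit lay below the threshold of 0.05 and every hippocampal fit above it, whereas 4 of the 10 thalamic fits lay above it.

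Thalamic Ccl2 had 1, 0, 1, 0 and 0 counts in sham and 0, 10, 9, 1 and 3 counts in TBI rats. TBI rats 7, 8 and 10 held 22 of the 23 counts in the TBI group, whereas TBI rat 6 had none. The means were 0.0130 ± 0.0181 and 0.154 ± 0.148 CPM, and the two-sided exact permutation test gave p = 0.0556. Without rat 6 the exact permutation p was 0.0159, and without each of the other 9 rats it was 0.0794 to 0.111. The adjusted p was 0.101 in edgeR without the count filter and 0.0326 in one edgeR fit of all brain areas, and DESeq2 gave no adjusted p. Across the 10 values of 0 for Ccl2 and Il1b in all areas, a count of 0 allowed a level of up to 0.0833 to 0.229 CPM (3 counts, counting error only).

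Thalamic Il1b had 6, 4, 9, 2 and 1 counts in sham and 5, 15, 16, 2 and 8 counts in TBI rats. Rats 7 and 8 alone exceeded the sham range in CPM (exact permutation p = 0.190). Thalamic Tlr2 ranged from 2.33 to 3.75 CPM in sham and from 2.71 to 6.24 CPM in TBI rats. TBI rats 7, 8 and 10 lay above all sham rats for Tlr2. Its log2 fold change was 0.57 (SE 0.25, edgeR adjusted p = 0.185). Thalamic Tlr4 ranged from 0.186 to 0.536 CPM in sham and from 0.307 to 0.780 CPM in TBI rats, with TBI rat 9 alone above all sham rats. Its log2 fold change was 0.59 (SE 0.35, edgeR adjusted p = 0.343), and it ranged from 0.36 (without rat 9) to 0.84 with each rat left out.

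The same TBI rats were not the highest for every gene. Rats 7 and 8 had the highest thalamic Tgfb1, Ccl2 and Il1b, and rat 8 had the highest thalamic Tlr2. Tlr4 was highest in rat 6 in the cortex and hippocampus and in rat 9 in the thalamus. Relative to the sham mean of each area, rat 6 had 3.67 times the sham level of Tlr4 in the cortex but 1.28 times the sham level of Tgfb1 in the thalamus, the lowest of the 5 TBI rats there.

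**Figure D3:**
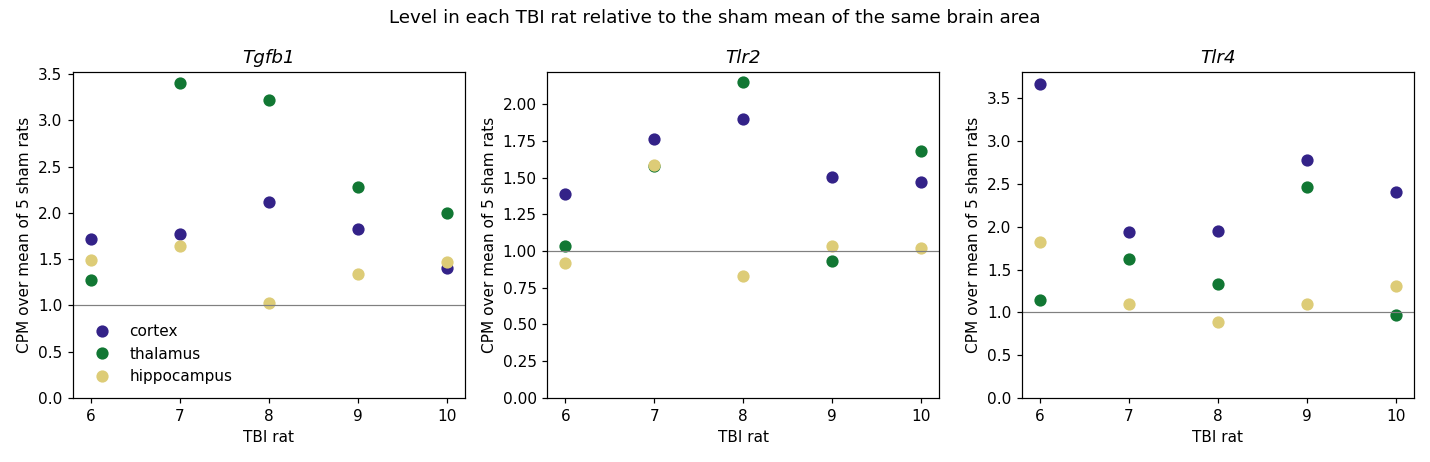
Level of Tgfb1, Tlr2 and Tlr4 in each TBI rat (horizontal axis) as a multiple of the mean of the 5 sham rats of the same brain area (vertical axis, CPM over CPM), with colours for brain areas. The points for the cortex all lie above 1, rats 7 and 8 have the highest thalamic Tgfb1, and rat 6 has the highest cortical Tlr4.

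In the hippocampus no member was called. Mean Tgfb1 was 1.39 times the sham mean in the TBI rats, and Tlr2, Tlr4, Ccl2 and Il1b overlapped between the groups. In edgeR's test 0 of 3 tested members and 0% of the 16963 genes tested were called, and 0.696% of genes had all TBI libraries above all sham libraries. At an unadjusted p under 0.05, edgeR found 1432 genes, 885 of them (5.22%) higher, and Tgfb1 was the member among these. DESeq2 called 41 genes in all and gave the members no adjusted p. The median log2 fold change was 0.28 over the 3 tested members and -0.01 over all genes.

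Hippocampal Tgfb1 had 226, 159, 272, 97 and 93 counts in sham and 344, 420, 235, 286 and 385 counts in TBI rats. In CPM these were 8.12, 6.63, 10.02, 7.41 and 6.47 in sham and 11.5, 12.7, 7.91, 10.4 and 11.4 in TBI rats. The groups overlapped through the library of TBI rat 8, which lay below those of sham rats 1 and 3, whereas the other 4 TBI libraries lay above every sham library. The log2 fold change was 0.46 (SE 0.14, edgeR adjusted p = 0.505). Without the libraries of rats 3 and 8 the groups were apart, the log2 fold change was 0.67 (SE 0.12) and the edgeR adjusted p was 0.0109. In that fit of 8 libraries 263 genes were called, 246 of them (1.45%) higher, and 5.64% of genes had all TBI libraries above all sham libraries. The libraries of rats 3 and 8 were picked by a check not independent of the treatment, so this fit is a description.

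Hippocampal Tlr2 ranged from 1.71 to 3.92 CPM in sham and from 2.32 to 4.45 CPM in TBI rats, and its highest level was in TBI rat 7. The log2 fold change of Tlr2 was 0.10 (SE 0.22, edgeR adjusted p = 0.932), and 0.17 (SE 0.25, adjusted p = 0.831) without rats 3 and 8. Tlr4 ranged from 0.333 to 0.700 CPM in sham and from 0.438 to 0.902 CPM in TBI rats. The log2 fold change of Tlr4 was 0.28 (SE 0.28, edgeR adjusted p = 0.829), and 0.57 (SE 0.31, adjusted p = 0.504) without rats 3 and 8. With each rat left out, that of Tlr4 ranged from 0.11 to 0.47. Ccl2 had 1, 1, 3, 0 and 2 counts in sham and 0, 6, 0, 0 and 5 counts in TBI rats, and the exact permutation p was 0.952. Il1b had 0 to 4 counts in sham and 1 to 5 counts in TBI libraries, and the exact permutation p was 0.452. Without rats 3 and 8 the exact permutation p was 0.657 for Ccl2 and 0.371 for Il1b. Without sham rats 4 and 5 the log2 fold changes were 0.39 for Tgfb1, 0.11 for Tlr2 and 0.26 for Tlr4 (edgeR adjusted p from 0.850 to 0.956), and the difference in mean Il1b went from 0.0274 to 0.00022 CPM (exact permutation p = 0.821).

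**Figure D4:**
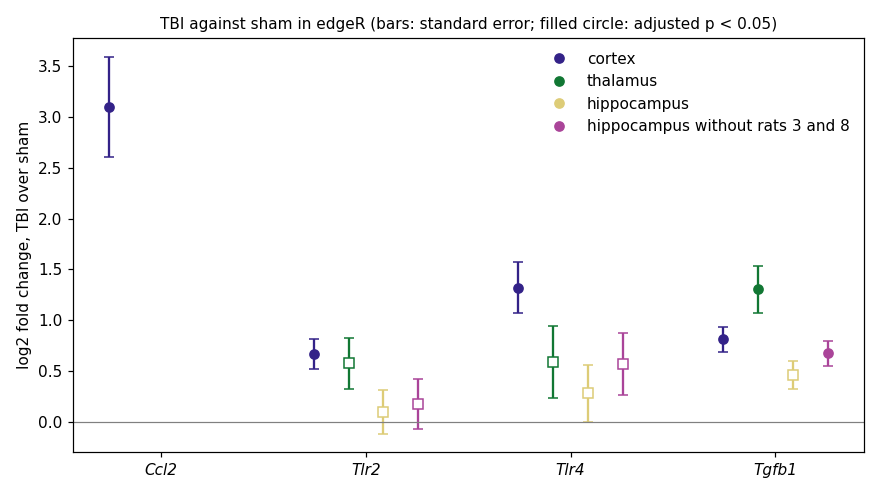
log2 fold change of TBI over sham with its standard error (vertical axis) for the members that edgeR tested (horizontal axis), by brain area (colours). Filled circles mark an adjusted p under 0.05: the 4 cortical values, thalamic Tgfb1 at 1.30, and hippocampal Tgfb1 at 0.67 without rats 3 and 8. The libraries of rats 3 and 8 were picked by a check not independent of the treatment, so that fit is a description.

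The difference of the TBI effect from one area to another was tested by an interaction term. The same rats gave both areas, but the main fits did not use this pairing. Il1b was not tested for cortex against hippocampus, nor Ccl2 and Il1b for thalamus against hippocampus, because the count filter removed them. None of the members tested passed, where edgeR called 0.44% of genes for cortex against thalamus, 3.04% for cortex against hippocampus and 0% for thalamus against hippocampus. Over all genes 1678 (9.46%), 3346 (18.9%) and 2356 (13.4%) had an unadjusted p under 0.05 in these tests, and the members among them were Ccl2 and Tlr4 for cortex against hippocampus and Tgfb1 for thalamus against hippocampus. Ccl2 passed the count filter for cortex against hippocampus only through its cortical TBI libraries, so its place among them is a description. The effect on Tlr4 was larger in the cortex than in the hippocampus by 1.01 on the log2 scale (SE 0.38, edgeR adjusted p = 0.146). For Ccl2 the same difference was 2.98 (SE 1.21, edgeR adjusted p = 0.176), and for Tlr2 it was 0.54 (SE 0.27, adjusted p = 0.287). For Tgfb1 it was 0.32 (SE 0.19, edgeR adjusted p = 0.388). With rats 3 and 8 left out of both areas, these 4 differences were 0.91 for Tlr4 (adjusted p = 0.419), 2.28 for Ccl2 (adjusted p = 0.574), 0.34 for Tlr2 (adjusted p = 0.698) and 0.02 for Tgfb1 (adjusted p = 0.984). The unadjusted p of Ccl2 was then 0.131 in edgeR and no longer under 0.05, and 36 genes were called in place of 537. The effect on Tgfb1 was larger in the thalamus than in the hippocampus by 0.80 (SE 0.29, edgeR adjusted p = 0.241), and by 1.01 (adjusted p = 0.0251) without rat 6, but by 0.40 (adjusted p = 0.848) without rats 3 and 8. Between cortex and thalamus, the differences were -0.44 (SE 0.27, edgeR adjusted p = 0.695) for Tgfb1 and 0.79 (SE 0.44, adjusted p = 0.635) for Tlr4. Hence a rise called in the cortex alone was not shown to differ from the change in another area.

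In the sham-operated rats, mean Tgfb1 was lower in the hippocampus than in the other areas. The means were 10.8 ± 1.51 CPM in the thalamus, 10.3 ± 1.30 CPM in the cortex and 7.73 ± 1.44 CPM in the hippocampus (n = 5 each). The thalamus and cortex did not differ beyond their spread (edgeR adjusted p = 0.730). The cortex lay above the hippocampus by 0.39 on the log2 scale (SE 0.14, edgeR adjusted p = 0.0248), and the thalamus by 0.48 (SE 0.21, adjusted p = 0.0459). Both calls were lost without sham rat 1, 2, 4 or 5 (adjusted p from 0.0638 to 0.174), the thalamic one also without TBI rat 9 or 10 (0.0549 and 0.0534) and with the rat as a block (0.0549). These contrasts were not fitted with sham rats 4 and 5 both left out. Leaving out rats 3 and 8 gave 0.56 (adjusted p = 0.00094) and 0.65 (adjusted p = 0.0120). Of all genes, 52.7% and 66.9% differed in level in these contrasts, and 69.5% between cortex and thalamus.

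Tlr4 of sham rats averaged 0.612 ± 0.186 CPM in the cortex, 0.496 ± 0.132 CPM in the hippocampus and 0.317 ± 0.135 CPM in the thalamus. The cortex lay above the thalamus by 0.94 (SE 0.33, edgeR adjusted p = 0.0142), but the adjusted p was 0.0811 without rat 3 and 0.0601 without rat 5. Neighbours in this order did not pass the test (adjusted p = 0.425 and 0.0941), although without rat 2 the hippocampus lay above the thalamus with an adjusted p of 0.0133. Without rats 3 and 8 the contrasts of Tlr4 with the hippocampus were 0.41 for the cortex (edgeR adjusted p = 0.342) and -0.33 for the thalamus (adjusted p = 0.457). Tlr2 of sham rats averaged 2.88 ± 0.460, 2.89 ± 0.588 and 2.80 ± 0.790 CPM in cortex, thalamus and hippocampus, and no pair of areas passed the test (edgeR adjusted p from 0.858 to 0.944), nor did the cortex or thalamus against the hippocampus without rats 3 and 8 (adjusted p = 0.742 and 0.862). Mean Ccl2 of sham rats was 0.0751, 0.0130 and 0.0655 CPM and mean Il1b 0.159, 0.149 and 0.0756 CPM in the same order, at 0 to 9 counts per library. The methods of the study give another instrument and longer reads for the thalamic libraries, whereas the sample labels give the same instrument and read length for every area. If the methods hold, brain area and sequencing cannot be told apart in contrasts with the thalamus.

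As a description across the 30 libraries, after the mean of each area was subtracted from log2 CPM, Tgfb1 correlated with Tlr2 at Pearson's r = 0.725, with Ccl2 at 0.704, with Tlr4 at 0.580 and with Il1b at 0.558. Among 18039 genes ordered by their likeness to Tgfb1, Tlr2 had rank 1017, Ccl2 rank 1162, Tlr4 rank 2141 and Il1b rank 2331. The weakest pair was Il1b and Tlr4 at 0.271. In the same set of genes, the 3 most like Tgfb1 had r from 0.971 to 0.976, led by ENSRNOG00000014294, and the 3 most like Tlr4 had r from 0.873 to 0.887, led by ENSRNOG00000009886. The 3 most like Ccl2, Tlr2 and Il1b had r from 0.840 to 0.865, from 0.792 to 0.828 and from 0.752 to 0.767. These values describe libraries that share rats, treatment and depth, and the low counts of Ccl2, Il1b and Tlr4 limit their own.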

How the data were processed

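Counts came from 5 sham-operated and 5 TBI rats in each of 3 brain areas, grouped by the sample labels. The authors aligned the reads to the Rnor_5.0 genome with STAR and deposited raw counts per Ensembl gene, 1 table per area. The counting tool and its use of strand are not given in the sources used here, so reads of overlapping genes cannot be told apart. All columns matched a sample (0 unused). The authors left out 2 hippocampal sham libraries for low alignment without naming them, and all 10 hippocampal libraries were used here.

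Each area was tested alone with edgeR 4.0.16 in R 4.3.3: filterByExpr (minimum count 10, minimum total 15), TMM, the robust quasi-likelihood test and Benjamini-Hochberg adjustment over all genes tested. Members that the filter removed were tested by a two-sided exact permutation of mean CPM (252 arrangements, scipy 1.17.1), and the joint TMM scale of these CPM was chosen after the counts were seen. Interactions and sham levels came from 4-group fits of each pair of areas. SEs were derived from the F statistic. Likeness used log2 CPM with a prior count of 3. Depth was 21992859 to 31799879 counts.

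The named genes were the 5 members and the genes most like each. Members and lists were chosen with earlier results of these data known. The names used here matched 0 of 26404 identifiers, so other genes of these pathways and cell type or tissue markers were not analysed here. Promoters of 4 members were matched by symbol (RefSeq, GRCr8). The check of rats 3 and 8 first used a threshold of 1.5 on the log2 scale, which left 2 genes, 0 of them keeping direction, and a 2-fold threshold with a mean of at least 1 CPM was then set after seeing this.

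The rat pairs the libraries by design, since each gave all 3 areas. The mean correlation of deviations of same-rat libraries was 0.0493 for cortex and thalamus, 0.0899 for cortex and hippocampus and 0.0306 for thalamus and hippocampus. Alternatives were DESeq2 1.42.0, RLE size factors, no count filter, voom with quality weights (limma 3.58.1), one fit of all areas, the rat as a block, each rat and pairs of rats left out and, added after the column names were seen, the 7 hippocampal libraries of one flow cell. A fit of the thalamus without rats 7 and 8 was also run and dropped, because those rats had been picked by their levels of these genes. The procedures were tested on simulated counts.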

Additional observations from a re-analysis of the deposited data

Results flagged for a closer look

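In the hippocampus of TBI rat 7, Tlr2 was 4.453 CPM (147 counts), far from the other 4 TBI rats, the nearest of which had 2.903 CPM. Without this rat the log2 fold change of hippocampal Tlr2 was -0.09 in place of 0.10. This was 1 of 30 groups of 5 libraries examined for a library far from its group (Dixon's test), and chance gives about 1 in 20.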

How the results depend on the processing

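Of 739 repeats of the results under other settings, 642 kept their direction and side of the threshold (for counts of genes, a similar count), and where values changed the cause was not tested. Cortical Il1b, under 0.05 by the unadjusted exact permutation p, had a log2 fold change of 1.14 in DESeq2 (unadjusted p = 0.0262, adjusted p = 0.0838), 1.10 in one edgeR fit of all areas (0.0265 and 0.0985) and 1.14 in edgeR without the filter (0.00617 and 0.0411). Thalamic Ccl2, not under 0.05 by the exact permutation p except without rat 6, had 3.13 in one fit of all areas (unadjusted p = 0.00511, adjusted p = 0.0326), 3.16 in edgeR without the filter (0.008 and 0.101) and 3.49 in DESeq2 (0.0112, no adjusted p). The count of genes called in the thalamus (934) was 1950 with DESeq2, 2671 with voom and 3457 in one fit of all areas, and 0 to 2421 with each rat left out. In the hippocampus (0 genes called) it was 41 with DESeq2, 263 without rats 3 and 8, 1 without sham rats 1 and 2, 3 without sham rats 3 and 5, and 0 to 1 with each rat left out. Hippocampal Tgfb1 was called without rats 3 and 8 (0.67), a fit given as a description. Hippocampal differences near 0 changed sign. For Ccl2 the difference in mean CPM was -0.00017 with RLE size factors, -0.0053 in the libraries of one flow cell, and -0.0174, -0.0313, -0.0293 and -0.0064 without sham rats 1 and 2, 1 and 4, 2 and 4, and 3 and 4. For Il1b it was -0.011 without sham rats 1 and 4. For Tlr2 the log2 fold change was -0.111, -0.062 and -0.105 without sham rats 2 and 3, 2 and 4, and 2 and 5. With each rat left out, the difference ranged from 0.0935 to 0.1796 CPM for thalamic Ccl2 and from -0.0286 to 0.0188 CPM for hippocampal Ccl2, and the log2 fold change from 1.15 to 1.47 for thalamic Tgfb1 and from -0.088 to 0.27 for hippocampal Tlr2. The rat as a replicate block moved the count of interactions from 78 to 49 for cortex against thalamus and from 537 to 1048 for cortex against hippocampus, turned the Ccl2 interaction of cortex and thalamus from -0.01 to 0.044, and raised the adjusted p of the higher sham level of Tgfb1 in thalamus than hippocampus above 0.05 (0.49, adjusted p = 0.0549), and it changed no other call of a member. That Tgfb1 contrast was also lost without the count filter (0.47, adjusted p = 0.0535) and with RLE size factors (0.46, adjusted p = 0.0544). The sham Tlr2 contrast of cortex and thalamus was -0.02, 0.025 without the filter and 0.018 with RLE. Without rats 3 and 8, 36 interactions were called for cortex against hippocampus, and the Tlr4 interaction of thalamus and hippocampus went from 0.25 to -0.13. With each rat left out, the interactions called were 35 to 110 for cortex against thalamus, 117 to 763 for cortex against hippocampus and 0 to 849 for thalamus against hippocampus. The same fits gave interactions from -0.71 to 1.03 for Ccl2 and from -0.47 to 0.62 for Il1b (cortex against thalamus), and from -0.061 to 0.66 for Tlr4 and from 0.58 to 1.01 for Tgfb1 (thalamus against hippocampus). Sham contrasts of cortex against thalamus ranged from -0.29 to 0.67 for Il1b, -0.16 to 0.11 for Tlr2 and 0.74 to 1.15 for Tlr4. Those of cortex against hippocampus ranged from -0.84 to 0.71 for Ccl2, -0.200 to 0.22 for Tlr2 and 0.33 to 0.56 for Tgfb1, and those of thalamus against hippocampus from -0.034 to 0.099 for Tlr2, -1.05 to -0.33 for Tlr4 and 0.38 to 0.65 for Tgfb1. Depth limits Ccl2 and Il1b, which had 0 to 29 counts per library.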
